A study of Mus musculus with 14 samples.

Results

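Wild-type E14 cells, an established line of mouse embryonic stem (ES) cells, were compared after 144 h of mTOR inhibition (mTORi) with the same cells before treatment. The comparison uses 4 of the 14 libraries of the series: 2 replicates of wild type at 0 h and 2 replicates of wild type at 144 h of INK128, a small molecule that blocks the kinase mTOR. The 4 libraries were chosen by genotype and time alone. The other 10 libraries, from wild type at 24 and 72 h and from the line labelled *Tet1/2* DKO at 0, 24 and 72 h, entered the filter on low values and the shared estimate of the spread between replicates, and wild type at 24 and 72 h is also given for context. All 4 libraries share the E14 background, growth without feeder cells in serum with LIF, a cytokine that keeps ES cells undifferentiated, and sorting of viable cells. RNA came from a fixed number of cells and was mixed with ERCC RNAs, a set of synthetic transcripts of known amount, a fixed mass of it entered each library, and ribosomal RNA was depleted. The study's reporting form says that experiments were repeated independently, but the labels do not tie replicates to separate cultures, so the p-values measure the spread between these libraries.

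mTOR is the catalytic part of 2 complexes that couple nutrients and growth factors to protein, lipid and nucleotide synthesis, and its inhibition holds back growth and releases lysosome biogenesis and autophagy. In mouse ES cells and blastocysts, mTOR inhibition brings on a reversible arrest that resembles diapause, the natural pause of the embryo before implantation, and the cells remain pluripotent. Such cells are described as dormant or paused.

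Each gene was read as 2 quantities. Plain TPM, a measure of transcripts scaled to a fixed library total, gives the share of a transcript among all transcripts of a library. Spike-in scaled TPM, written spike-in TPM beside values, is the same value times 1 factor per library, which sets it relative to the ERCC RNAs, and it is called the amount here. Whether the ERCC RNAs were added per cell or per mass of RNA is not given in the sources used here, so an amount is one relative to the ERCC RNAs and not necessarily one per cell. The factors were 2.11 in both libraries at 0 h and 1.07 and 1 at 144 h, so a transcript with an unchanged share stood at 0.490 of its 0 h amount. Log2 differences are 144 h minus 0 h on the log2(TPM + 1) scale, which understates the change of genes near 0, and a gene is called at a Benjamini-Hochberg adjusted p under 0.05 from limma over all 18232 genes tested. TPM keep no read counts, so the depth behind a value is unknown. Square brackets after a count of list members give its lowest and highest value when each of the 4 libraries was left out in turn, wherever that moved it by over 1.5 times.

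Setting both quantities side by side divided the genes into classes. Spike-in scaled, 84 genes were higher at 144 h (0.461% of those tested) and 9203 lower (50.5%), and in plain TPM 2844 were higher (15.6%) and 2134 lower (11.7%). With each library centred on its median, 1988 were higher and 2946 lower in share, so which group was larger depended on the scaling. Of the 84 genes that rose in amount, 83 (0.455% of those tested) also rose in share, and all 2134 genes with a lower share also had a lower amount. Much of this overlap follows from the library factors, which were lower at 144 h than at 0 h for every gene alike. A further 6992 genes (38.4%) had a lower amount with no call on the share. For 2684 genes (14.7%) the share rose with no call on the amount, and 77 genes (0.422%) had a lower amount and a higher share. The remaining 6261 genes (34.3%) were not called on either quantity. Spike-in scaled, both libraries at 144 h lay above both at 0 h in 658 genes (3.61% of those tested) and below both in 14975 (82.1%). With the replicate number as a block within each genotype, the number of genes that rose in amount went from 84 to 191. It was 35 without 0 h replicate 1, 50 without 0 h replicate 2, and 33 when either of the libraries at 144 h was left out.

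**Figure D1:**
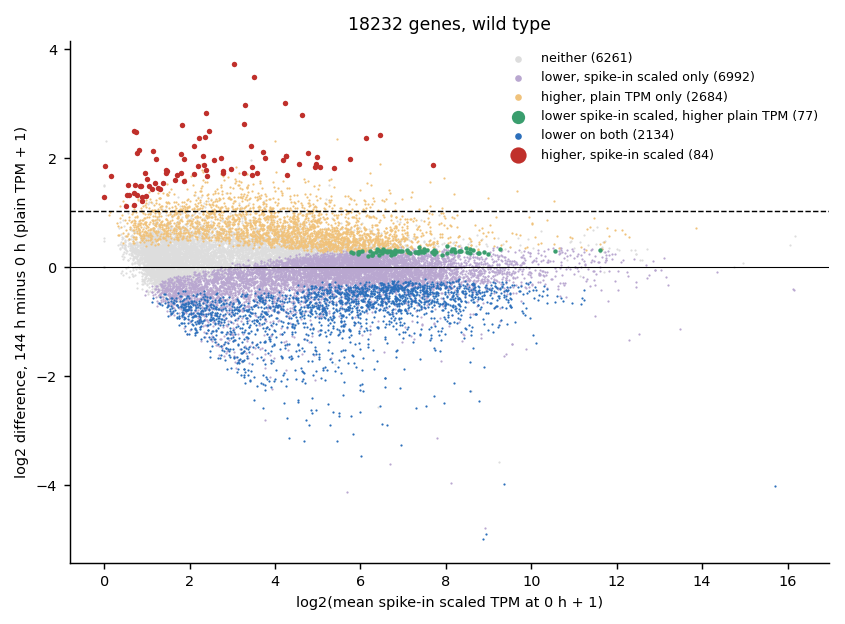
Each point is 1 of 18232 genes, with log2 of its mean spike-in scaled TPM at 0 h plus 1 on the x axis and its log2 difference in plain TPM (144 h minus 0 h) on the y axis. Colours give the calls on both quantities. The dashed line marks the plain TPM difference at which the amount is unchanged, for genes well above the 1 TPM added before the logarithm. For genes at low levels an unchanged amount lies below the line. The 84 genes that rose in amount lie in the upper part of the plot, and the 2134 genes lower on both quantities lie in the lower part at all levels.

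The cells were checked against the markers of their label. The ES cell markers *Pou5f1*, *Sox2*, *Nanog*, *Zfp42*, *Esrrb*, *Dppa5a* and *Tdgf1* were present in all 4 libraries, with *Nanog* the lowest of them at 144 h at 221 and 230 spike-in scaled TPM. Replicates resembled each other more closely than the groups did, with a Pearson r across genes of 0.986 at 0 h and 0.990 at 144 h against 0.957 to 0.966 between the groups (genes are not independent replicates).

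Among the lists of metabolism and stress, the lowest median was that of the targets of ATF4, a transcription factor made when amino acids run short or the endoplasmic reticulum is stressed, and also under mTORC1. Of 24 ATF4 stress response genes tested, 22 fell in amount and 17 also fell in share, with median log2 differences of −1.80 and −0.82 against −0.83 and 0.055 over all genes. *Nupr1*, a small stress-induced chromatin protein, was at 40.8 and 44.2 spike-in TPM at 0 h against 1.06 and 1.71 at 144 h (log2 difference −4.20, SE 0.42, adjusted p = 2.8e-06). *Chac1*, which degrades glutathione, was at 42.7 and 46.2 spike-in TPM at 0 h against 2.55 and 2.24 at 144 h (log2 difference −3.74, SE 0.39, adjusted p = 4.7e-06). *Trib3*, a pseudokinase that feeds back on ATF4, was at 42.8 and 52.1 spike-in TPM at 0 h against 4.13 and 3.33 at 144 h (log2 difference −3.35, SE 0.40, adjusted p = 1.7e-05). For all 3 genes both libraries at 144 h lay far below both at 0 h, and replicates lay close together. Both libraries at 144 h lay below both at 0 h in 82.1% of all genes tested. *Atf5*, a related transcription factor, fell by 2.54 on the log2 scale in amount (adjusted p = 0.00024), and *Asns*, which makes asparagine, by 1.49 (adjusted p = 0.00038). Those not called in amount were *Cebpg* and *Ppp1r15a*. *Ppp1r15a*, the phosphatase subunit that ends the stress response, was at 46.5 and 54.8 spike-in TPM at 0 h against 41.8 and 35.2 at 144 h (log2 difference −0.39, SE 0.30, adjusted p = 0.27) with a rise in share (plain TPM log2 difference 0.61, adjusted p = 0.0066). The call in share was lost for *Ppp1r15a* without 0 h replicate 1 or 144 h replicate 1 (adjusted p 0.051 to 0.053). *Atf5* and *Ppp1r15a* overlap other annotated genes, so reads there are uncertain.

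The sequence that ATF4 binds with a partner protein was looked for in the promoters of these genes, because most of them fell. In RefSeq promoters of build GRCm38.p6, taken from 250 bases before to 50 bases after each start, the letters TGATGNAA on either strand were found in 10 of 27 promoters of the list (22 genes matched), 37.0%. They were found in 5 of 12 promoters of the cytosolic aminoacyl-tRNA synthetases (41.7%), in 1 of 35 promoters of the nucleotide, serine and one-carbon list (2.86%), in 3.97% of all 32851 promoters and in 2.20% of the 13936 promoters of genes tested. Among genes called lower the letters were in 2.35% of promoters by amount and 3.14% by share. The letters were chosen after the values of these genes were seen, and a match is a description, not a site of binding. The windows of 30 bases below, all upstream of the start, show the match in capitals as read on the strand of the gene, which is TGATGNAA or its reverse complement. They are shown for ATF4 genes that fell and for the glycyl-tRNA synthetase gene *Gars*.
*Nupr1*, chr7:126625562-126625591, minus strand: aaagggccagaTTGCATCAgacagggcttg
*Chac1*, chr2:119351038-119351067, plus strand: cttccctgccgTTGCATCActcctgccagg
*Asns*, chr6:7693214-7693243, minus strand: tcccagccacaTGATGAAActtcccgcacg
*Gars*, chr6:55037960-55037989, plus strand: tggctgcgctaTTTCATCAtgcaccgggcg

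Enzymes that charge tRNA and that make serine and one-carbon units were lower too. All 20 cytosolic aminoacyl-tRNA synthetases, which load amino acids onto tRNA, fell in amount and 12 fell in share (medians −1.50 and −0.48). *Nars* was at 512 and 578 spike-in TPM at 0 h against 125 and 108 at 144 h (log2 difference −2.22, SE 0.29, adjusted p = 3.7e-05). *Aars* was at 341 and 311 spike-in TPM at 0 h against 74.7 and 64.4 at 144 h (log2 difference −2.21, SE 0.27, adjusted p = 2.2e-05). *Qars*, the glutaminyl-tRNA synthetase, was the one whose share rose, from 101 and 98.8 to 126 and 113 plain TPM (0.25, adjusted p = 0.038), while its amount fell (−0.77, adjusted p = 0.03). Of 35 genes of nucleotide, serine and one-carbon synthesis, 32 fell in amount and 13 [8 to 11] in share. *Mthfd2*, a mitochondrial folate enzyme, was at 197 and 222 spike-in TPM at 0 h against 19.8 and 18.4 at 144 h (log2 difference −3.39, SE 0.29, adjusted p = 8.2e-07). *Psat1*, of the serine pathway, was at 432 and 514 spike-in TPM at 0 h against 65.2 and 62.7 at 144 h (log2 difference −2.86, SE 0.33, adjusted p = 1.4e-05). The remaining serine enzymes followed, *Psph* at −2.87 (adjusted p = 3.9e-05) and *Phgdh* at −2.32 (adjusted p = 1.2e-05). *Tdh*, the threonine dehydrogenase that mouse ES cells use as a one-carbon source, was at 496 and 434 spike-in TPM at 0 h against 365 and 339 at 144 h, with a rise in share (plain TPM log2 difference 0.62, adjusted p = 0.017) and no call on the amount. In amount, the call was lost for *Qars* without any 1 of the 4 libraries (adjusted p 0.071 to 0.19). The calls in share were lost for *Qars* without any 1 of the 4 libraries and for *Tdh* without 0 h replicate 2 or 144 h replicate 1 or 144 h replicate 2 (adjusted p 0.057 to 0.23). *Aars*, *Mthfd2*, *Psat1*, *Psph* and *Tdh* overlap other annotated genes, so reads there are uncertain.

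The lists of the protein-synthesis machinery differed in their medians. Of 79 cytosolic ribosomal protein genes 47 [1 to 15] fell in amount, none fell in share and 17 [3 to 6] rose in share (37 with the replicate block), with medians of −0.73 and 0.30. *Rps27* went from 1237 and 1265 to 2139 and 2042 plain TPM (0.74, adjusted p = 0.0015). *Eef2*, the elongation factor that moves the ribosome along the mRNA, went from 1238 and 1434 to 2598 and 2411 plain TPM (0.91, adjusted p = 0.0009), and its amount was not called (−0.12, adjusted p = 0.76). Of the mitochondrial ribosomal protein genes, 77 of 78 fell in amount and 31 [15 to 21] in share (medians −1.32 and −0.31). *Mrpl45* was at 188 and 200 spike-in TPM at 0 h against 46 and 40.3 at 144 h (log2 difference −2.15, SE 0.30, adjusted p = 6.6e-05). Of 50 ribosome biogenesis and nucleolar genes, 49 [24 to 40] fell in amount and 8 [5 to 7] in share (16 in share with the replicate block). *Eef2* and *Mrpl45* overlap other annotated genes, so reads there are uncertain.

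Among 54 translation factors and their regulators, 44 [28 to 39] fell and 1 rose in amount. *Eif4g3* encodes a scaffold of the complex that binds the mRNA cap. It was at 7.51 and 9.66 spike-in TPM at 0 h against 31.6 and 30.8 at 144 h (log2 difference 1.76, SE 0.37, adjusted p = 0.0012). Both libraries at 144 h lay above both at 0 h, as in 3.61% of all genes tested. *Eif4ebp1*, the cap-binding inhibitor that mTORC1 phosphorylates, was at 305 and 292 spike-in TPM at 0 h against 90.1 and 77.7 at 144 h (log2 difference −1.82, SE 0.27, adjusted p = 0.00012). *Pdcd4*, an inhibitor of the helicase eIF4A, was at 44.9 and 58.4 spike-in TPM at 0 h against 64.3 and 63.03 at 144 h, a rise in share (plain TPM log2 difference 1.31, adjusted p = 0.0024) with no call on the amount (adjusted p = 0.48). *Eif4g3* and *Pdcd4* overlap other annotated genes, so reads there are uncertain.

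Most genes of the respiratory chain and the proteasome fell in amount. Such calls were commoner at higher levels. Over deciles of the protein-coding genes ordered by level at 0 h, 10.9% fell in amount in decile 1. In deciles 9 and 10 it was 86.9% and 88.7%. The part of level in the counts of these and the other lists was not tested. Of 76 nuclear-encoded respiratory chain subunits, 75 fell in amount and 29 [9 to 18] in share (medians −1.24 and −0.22), and of 13 genes encoded in the mitochondrial genome, 10 [3 to 8] fell in amount and 1 [0 to 1] in share. *Uqcrq*, of complex III, was at 263 and 253 spike-in TPM at 0 h against 68.1 and 58.6 at 144 h (log2 difference −2.01, SE 0.26, adjusted p = 3.2e-05). Of 39 proteasome subunits, 36 fell in amount and 22 [6 to 13] in share (medians −1.38 and −0.35). *Psmd14*, which removes ubiquitin from substrates, was at 340 and 365 spike-in TPM at 0 h against 117 and 105 at 144 h (log2 difference −1.66, SE 0.28, adjusted p = 0.00032). The 2 subunits with a higher share, *Psme1* (plain TPM log2 difference 0.97, adjusted p = 0.0023) and *Psme2* (plain TPM log2 difference 1.11, adjusted p = 0.0049), form the PA28 activator of the immunoproteasome, and their amounts were not called. *Psmd14* and *Psme1* overlap other annotated genes, so reads there are uncertain.

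**Figure D2:**
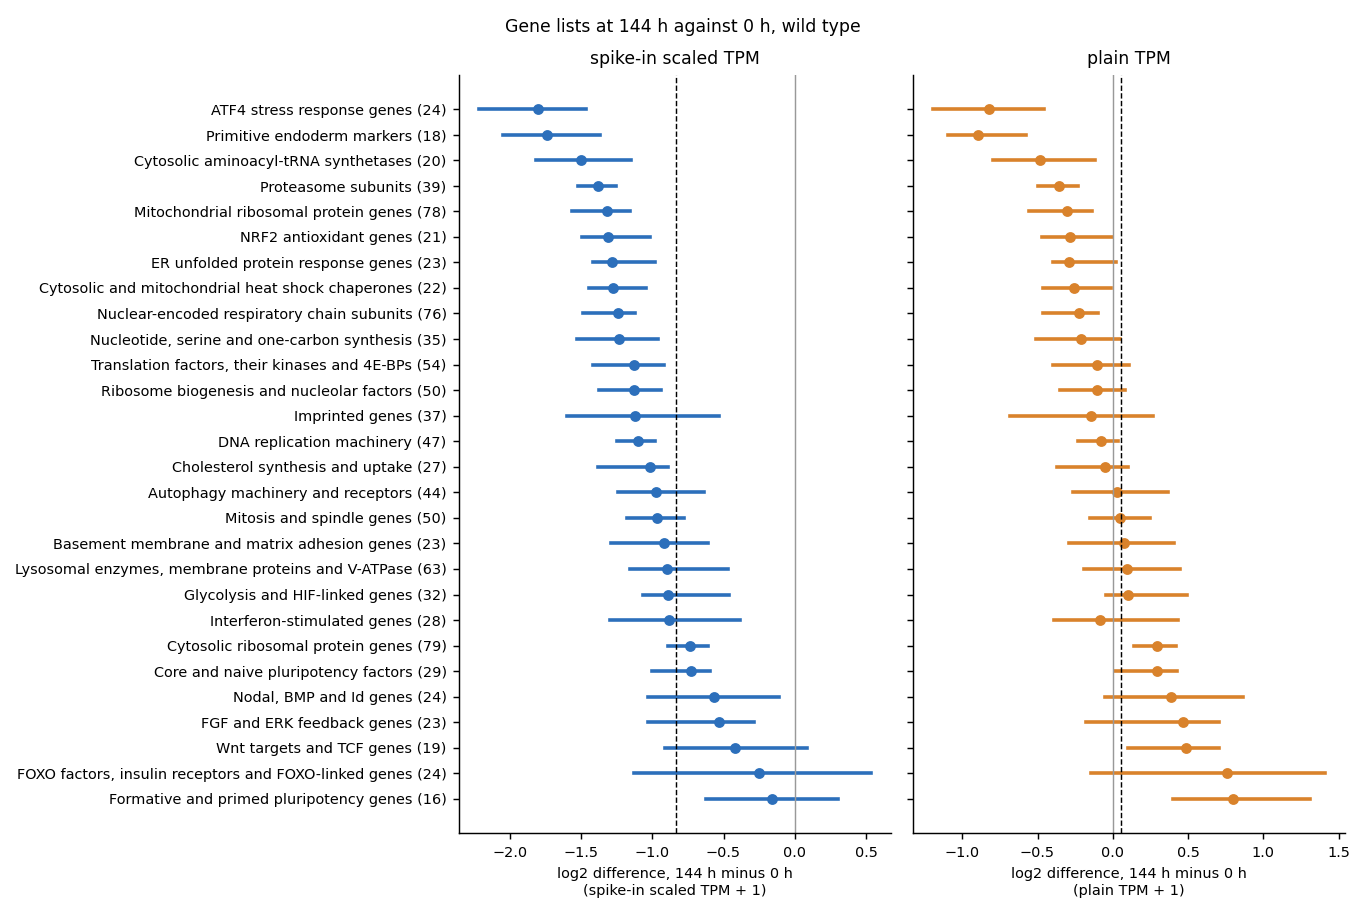
Median (dot) and interquartile range (bar) of the log2 difference, 144 h minus 0 h, over the members of 28 gene lists, spike-in scaled on the left and in plain TPM on the right, with the number of genes tested in brackets. The dashed line is the median of all genes tested (−0.83 on the left and 0.055 on the right). ATF4 stress response genes and primitive endoderm markers lie lowest, and the FOXO and insulin list and the formative and primed list lie highest. The lists were chosen with earlier results of these data known.

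Stress-response genes were lower as well. Of 21 antioxidant genes under NRF2, 19 fell in amount and 9 [3 to 5] in share. *Hmox1*, which breaks down haem, was at 178 and 317 spike-in TPM at 0 h against 21.4 and 18.6 at 144 h (log2 difference −3.51, SE 0.37, adjusted p = 4.7e-06). *Nqo1*, a quinone reductase, was at 29.2 and 31.4 spike-in TPM at 0 h against 5.21 and 3.402 at 144 h (log2 difference −2.58, SE 0.34, adjusted p = 4.4e-05). The ferritin subunit *Fth1* was at −2.27 (adjusted p = 3.2e-05). Of 22 heat shock and chaperone genes 21 [13 to 17] fell in amount and 7 [2 to 4] in share, among them the mitochondrial chaperone *Hspd1*, at −1.59 (adjusted p = 0.0004). Of 23 genes of the unfolded protein response of the endoplasmic reticulum, 18 fell and 1 [0 to 1] rose in amount. *Herpud1*, of the degradation machinery of that organelle, was at 33.6 and 40.7 spike-in TPM at 0 h against 7.03 and 5.85 at 144 h (log2 difference −2.36, SE 0.36, adjusted p = 0.00015). *Derl3*, a channel protein of the same machinery, was the gene that rose, at 13.8 and 22.5 spike-in TPM at 0 h against 40.7 and 37.6 at 144 h (log2 difference 1.10, SE 0.32, adjusted p = 0.0095). In amount, the call was lost for *Derl3* without 0 h replicate 1 or 144 h replicate 1 or 144 h replicate 2 (adjusted p 0.057 to 0.13). *Hspd1* and *Herpud1* overlap other annotated genes, so reads there are uncertain.

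FOXO factors are held out of the nucleus by AKT when insulin signalling is active. The medians of the FOXO and insulin list lay above those of all genes, as did 17 of its members on each quantity. Its members, *Klhl24* and *Crebrf* among them, were chosen with earlier results of these data known, so these medians are a description. Of 24 genes tested, 4 [0 to 2] rose in amount (7 with the replicate block) and 8 [5 to 6] fell, while 14 rose and 1 [0 to 1] fell in share, with medians of −0.25 and 0.76. *Klhl24*, a ubiquitin ligase adaptor, was at 22.1 and 30.4 spike-in TPM at 0 h against 57.3 and 59.2 at 144 h (log2 difference 1.13, SE 0.31, adjusted p = 0.0068). *Crebrf*, a regulator of a stress-induced CREB protein, was at 14.9 and 19.5 spike-in TPM at 0 h against 36.5 and 34.9 at 144 h (log2 difference 1.03, SE 0.31, adjusted p = 0.011). *Irs1*, the adaptor of the insulin receptor, was at 0.492 and 0.771 spike-in TPM at 0 h against 2.37 and 2.49 at 144 h (log2 difference 1.08, SE 0.37, adjusted p = 0.022). *Ccng2*, an atypical cyclin found in resting cells, was at 5.59 and 8.15 spike-in TPM at 0 h against 14.1 and 14.2 at 144 h (log2 difference 0.97, SE 0.37, adjusted p = 0.037). In these 4 genes both libraries at 144 h lay above both at 0 h, as in 3.61% of all genes. *Insr*, the receptor itself, was at 7.62 and 10.7 spike-in TPM at 0 h against 11.5 and 12.3 at 144 h, a rise in share (plain TPM log2 difference 1.24, adjusted p = 0.002). *Foxo3* was at 64.4 and 69.8 spike-in TPM at 0 h against 56.8 and 54.8 at 144 h (plain TPM 0.75, adjusted p = 0.0032). The members that fell in amount were *Cat*, *Cited2*, *Foxo4*, *Sesn1*, *Sgk1*, *Sod2*, *Tob1* and *Trp53inp1* (−1.66, adjusted p = 0.0077), of which *Cat*, the peroxide-degrading catalase, also fell in share (plain TPM log2 difference −0.44, adjusted p = 0.035). *Trp53inp1* was not called in share (−0.65, adjusted p = 0.27). The calls in amount were lost for *Klhl24* without 0 h replicate 1 or 144 h replicate 2, for *Crebrf* without 0 h replicate 1 or 144 h replicate 1 or 144 h replicate 2, for *Irs1* and *Ccng2* without any 1 of the 4 libraries and for *Trp53inp1* without 0 h replicate 2 (adjusted p 0.055 to 0.21). In share, the call was lost for *Cat* without any 1 of the 4 libraries (adjusted p 0.094 to 0.15). With the replicate block *Trp53inp1* was called in share (adjusted p = 0.027). *Irs1* and *Insr* overlap other annotated genes, so reads there are uncertain.

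The mTOR pathway's own genes were mixed: of 44 tested 27 [12 to 16] fell in amount, and in share 10 [6 to 8] rose and 7 [4 to 7] fell. *Mtor* was at 59.9 and 59.3 spike-in TPM at 0 h against 49.1 and 42.3 at 144 h, with a higher share (plain TPM log2 difference 0.62, adjusted p = 0.00081) and no call on the amount. *Rragb*, a GTPase that recruits mTORC1 to the lysosome, was at 27.95 and 26.2 spike-in TPM at 0 h against 30.1 and 30.6 at 144 h, with a share difference of 1.14 (adjusted p = 0.00028). *Sesn2*, a leucine sensor that holds back mTORC1, was at 122 and 151 spike-in TPM at 0 h against 32.6 and 28.4 at 144 h (log2 difference −2.12, SE 0.32, adjusted p = 0.00014), with a share difference of −1.10 (adjusted p = 0.00029). *Castor1*, an arginine sensor that also holds it back, was at 48.2 and 72.6 spike-in TPM at 0 h against 16.5 and 11.9 at 144 h (log2 difference −2.001, SE 0.31, adjusted p = 0.00017), with a share difference of −0.996 (adjusted p = 0.0053). The call in share was lost for *Castor1* without 144 h replicate 2 (adjusted p = 0.054). *Mtor* and *Sesn2* overlap other annotated genes, so reads there are uncertain.

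At 24 h the median share difference of lysosomal genes was 0.45, against −0.0077 over all genes. At 144 h they were close to the background as a list. Of 63 tested, 35 [10 to 24] fell in amount, 12 [5 to 10] rose in share and 6 [2 to 8] fell in share, with medians of −0.89 and 0.10. *Mcoln1*, the calcium channel of the lysosome, was at 31.5 and 32.3 spike-in TPM at 0 h against 29.9 and 30.7 at 144 h (plain TPM 0.91, adjusted p = 0.0024). *Lamp2*, a membrane protein, was at 23.8 and 29.4 spike-in TPM at 0 h against 23.97 and 31.7 at 144 h (plain TPM 1.03, adjusted p = 0.0091). *Cd68* went the other way, at 45.3 and 39.9 spike-in TPM at 0 h against 9.93 and 8.14 at 144 h (log2 difference −2.12, SE 0.32, adjusted p = 0.00012). *Ctsd*, the protease cathepsin D, was at 203 and 266 spike-in TPM at 0 h against 130 and 114 at 144 h, a lower amount (log2 difference −0.93, SE 0.32, adjusted p = 0.023) with a share difference of 0.10 (adjusted p = 0.66). The mRNAs of 2 factors that drive lysosomal genes, *Tfeb* and *Tfe3*, were not higher in amount. The paper cites work in which TFE3 moves into the nucleus when PI3K and mTOR are inhibited, which mRNA levels do not show. *Tfeb* was at 52.5 and 44.9 spike-in TPM at 0 h against 16.4 and 13.1 at 144 h (log2 difference −1.66, SE 0.32, adjusted p = 0.0007). *Tfe3* was at 82.97 and 99.8 spike-in TPM at 0 h against 53.97 and 49.8 at 144 h (log2 difference −0.80, SE 0.29, adjusted p = 0.029). TFE factors bind CACGTG, preferably in the form TCACGTGA. The longer form was found, on both strands at once since it is its own reverse complement, in 8 of 58 lysosomal promoters (52 genes matched), 13.8%, against 0.974% of all promoters and 1.73% of those of genes tested. The cytosolic tRNA synthetases held it in 2 of 12 promoters (16.7%) and the shorter form in 4 (33.3%). It was found in 2.42% of the promoters of genes with a higher share and 0.953% of those with a lower share. The shorter CACGTG, which the longer form contains, was found in 31.0%, 7.15% and 9.96% of these first 3 sets. The windows of *Mcoln1* and *Ctsd*, upstream of the start, show the letters in capitals in a gene whose share rose and in a gene whose amount fell. In amount, the calls were lost for *Ctsd* without 0 h replicate 2 or 144 h replicate 1 or 144 h replicate 2 and for *Tfe3* without any 1 of the 4 libraries (adjusted p 0.06 to 0.19). The call in share was lost for *Lamp2* without 0 h replicate 1 or 144 h replicate 2 (adjusted p 0.062 to 0.086). *Ctsd* overlaps another annotated gene, so reads there are uncertain.
*Mcoln1*, chr8:3500462-3500491, plus strand: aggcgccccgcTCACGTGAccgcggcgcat
*Ctsd*, chr7:142387908-142387937, minus strand: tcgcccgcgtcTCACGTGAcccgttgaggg

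Of 44 autophagy genes 29 [13 to 19] fell in amount, 9 [4 to 9] rose in share and 7 [2 to 8] fell in share. *Calcoco2*, the receptor NDP52 that delivers bacteria and mitochondria to the autophagosome, was at 430 and 557 spike-in TPM at 0 h against 7.01 and 7.06 at 144 h (log2 difference −5.93, SE 0.48, adjusted p = 5.2e-07). *Gabarapl2*, which is attached to the autophagosome membrane, was at 422 and 394 spike-in TPM at 0 h against 114 and 107 at 144 h (log2 difference −1.88, SE 0.27, adjusted p = 0.0001). *Bnip3*, a mitophagy receptor, was at 53.3 and 70.7 spike-in TPM at 0 h against 80.2 and 84.99 at 144 h with a higher share (plain TPM log2 difference 1.43, adjusted p = 0.0027). *Wipi1*, which binds the forming membrane (plain TPM log2 difference 1.37, adjusted p = 0.00077), and the kinase *Ulk2* (plain TPM log2 difference 1.13, adjusted p = 0.0016) also rose in share. With the replicate block *Wipi1* (0.666, adjusted p = 0.0257) and *Ulk2* (0.611, adjusted p = 0.0345) were called higher in amount. *Bnip3* overlaps another annotated gene, so reads there are uncertain.

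The summed share of glycolysis genes at 144 h was near that at 0 h, and that of cholesterol genes was somewhat below it. Both were lower at 24 and 72 h than at 144 h. The summed share of the glycolysis and HIF list was 10782 and 10892 plain TPM at 0 h, 5673 and 5276 at 24 h, 7925 and 6552 at 72 h, then 11198 and 10625 at 144 h. The cholesterol list went from 1071 and 1093 at 0 h to 637 and 561 at 24 h, 785 and 734 at 72 h, then 983 and 977 at 144 h. All 3 later times share the 0 h libraries. At 144 h 18 [6 to 13] of 32 glycolysis identifiers fell in amount and in share 7 rose and 4 [2 each time] fell. *Ldha*, which makes lactate, was at 2092 and 2464 spike-in TPM at 0 h against 771 and 629 at 144 h (log2 difference −1.70, SE 0.32, adjusted p = 0.00056). *Ldhb*, which favours the reverse step, was at 328 and 163 spike-in TPM at 0 h against 380 and 331 at 144 h, a higher share (plain TPM log2 difference 1.63, adjusted p = 0.0029). *Pdk1*, which closes the entry of pyruvate into the citric acid cycle, was at 113 and 91.7 spike-in TPM at 0 h against 135 and 126 at 144 h (plain TPM 1.36, adjusted p = 0.00016). In fat metabolism, *Scd1*, the desaturase of stearoyl-CoA, was at 88.9 and 54.6 spike-in TPM at 0 h against 12.7 and 10.8 at 144 h (log2 difference −2.48, SE 0.33, adjusted p = 3.9e-05). *Cpt1a*, which admits fatty acids to the mitochondrion, was at 36.4 and 28.2 spike-in TPM at 0 h against 35.6 and 31.5 at 144 h, a higher share (plain TPM log2 difference 1.04, adjusted p = 0.00082) with no call on the amount (adjusted p = 0.89). With the replicate block *Ldhb* was called in amount (adjusted p = 0.038).

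**Figure D3:**
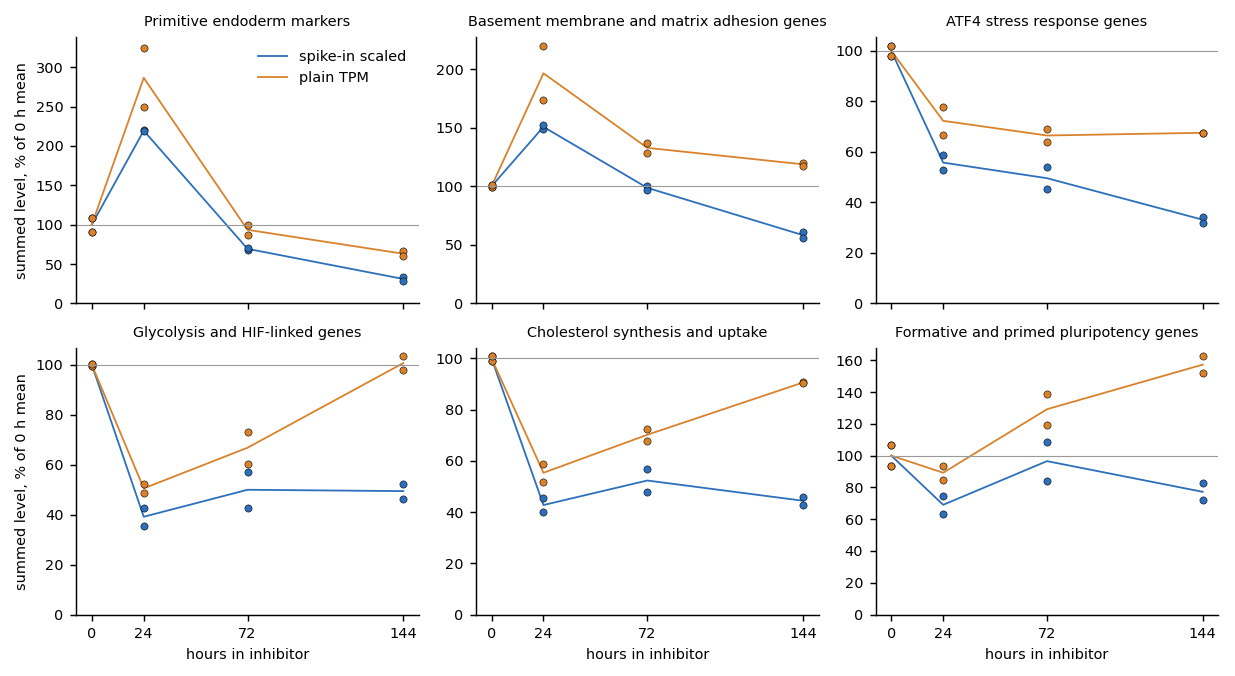
Summed level of 6 gene lists in wild-type cells over hours of mTORi, as a percentage of the mean at 0 h, with points for the 2 libraries at each time and lines through the means, spike-in scaled in blue and plain TPM in orange. Primitive endoderm markers and basement membrane genes peak at 24 h, and ATF4 genes stay below their 0 h level at each later time. Glycolysis and cholesterol genes dip at 24 h. At 144 h glycolysis genes are at about their 0 h share and cholesterol genes lie somewhat below it.

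The cell-cycle genes were read as lists of replication, mitosis, G1 and histone genes. Of 47 replication genes 41 [21 to 34] fell in amount, and in share 5 rose and 7 [3 to 6] fell (11 with the replicate block). Of 50 mitosis and spindle genes 37 [16 to 27] fell in amount, with 11 [5 to 8] higher and 6 [2 to 4] lower in share. *Cdc6*, which loads the replicative helicase, was at 94.2 and 91.7 spike-in TPM at 0 h against 27.4 and 26.3 at 144 h (log2 difference −1.75, SE 0.29, adjusted p = 0.00029). *Aurka*, a spindle kinase, was at 261 and 251 spike-in TPM at 0 h against 81.4 and 74.8 at 144 h (log2 difference −1.70, SE 0.28, adjusted p = 0.00027). *Top2a*, which untangles chromosomes, was at 756 and 730 spike-in TPM at 0 h against 586 and 536 at 144 h, a higher share (plain TPM log2 difference 0.62, adjusted p = 0.00057). The G1 cyclin *Ccnd3* was at 427 and 341 spike-in TPM at 0 h against 84.6 and 80.02 at 144 h (log2 difference −2.20, SE 0.27, adjusted p = 2e-05). *Ccne1* was at 392 and 366 spike-in TPM at 0 h against 103 and 92.3 at 144 h (log2 difference −1.95, SE 0.27, adjusted p = 6.1e-05), and both also fell in share (−1.18 and −0.92, adjusted p = 0.0054 and 0.0064). *Cdkn1b*, the inhibitor p27 of the G1 kinases, was at 18.03 and 21.1 spike-in TPM at 0 h against 17.1 and 19.2 at 144 h, not called in amount and higher in share (plain TPM log2 difference 0.85, adjusted p = 0.0032). Of 65 replication-dependent histone genes 48 [17 to 26] fell in amount, and their reads are uncertain because the copies are near-identical. *Top2a* and *Ccnd3* overlap other annotated genes, so reads there are uncertain.

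Apoptosis regulators of the BCL2 family moved in both directions, with 1 of 14 higher and 5 lower in amount. *Bmf*, a killer protein that senses detachment and loss of growth signals, was at 11.3 and 13.2 spike-in TPM at 0 h against 30.02 and 28.5 at 144 h (log2 difference 1.20, SE 0.33, adjusted p = 0.0064). *Bcl2l1*, the survival protein BCL-XL, was at 63.5 and 70 spike-in TPM at 0 h against 20.8 and 21.4 at 144 h (log2 difference −1.62, SE 0.29, adjusted p = 0.00046). *Bad*, which binds it, was at 20.7 and 23.2 spike-in TPM at 0 h against 4.72 and 5.35 at 144 h (log2 difference −1.93, SE 0.35, adjusted p = 0.0005). *Mcl1*, a survival protein with a short half-life, was at 396 and 524 spike-in TPM at 0 h against 379 and 358 at 144 h, with a higher share (plain TPM log2 difference 0.72, adjusted p = 0.0029). *Bad* overlaps another annotated gene, so reads there are uncertain.

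Of 29 core and naive pluripotency factors 15 [5 to 10] fell in amount and none rose, while in share 8 [4 to 6] rose and 2 [0 to 1] fell (medians −0.73 and 0.30). *Klf4* was at 140 and 151 spike-in TPM at 0 h against 198 and 178 at 144 h, with a share difference of 1.39 (adjusted p = 0.00094). *Tdgf1*, the NODAL co-receptor, was at 979 and 992 spike-in TPM at 0 h against 958 and 867 at 144 h, with a share difference of 0.91 (adjusted p = 0.001). *Nanog*, a core factor, was at 680 and 727 spike-in TPM at 0 h against 221 and 230 at 144 h (log2 difference −1.63, SE 0.34, adjusted p = 0.0013), with a share difference of −0.61 (adjusted p = 0.042). *Dppa3*, found in germ cells and a fraction of ES cells, was at 15.5 and 60.6 spike-in TPM at 0 h against 2.14 and 0.507 at 144 h (log2 difference −3.87, SE 0.83, adjusted p = 0.0014), and 0 h replicate 2 stood far above replicate 1. With no filter on low values the *Dppa3* calls in amount (adjusted p = 0.052) and in share (0.106) were lost. In share, the call was lost for *Nanog* without any 1 of the 4 libraries (adjusted p 0.1 to 0.17).

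Formative and primed genes, which rise when ES cells leave the naive state, had the highest spike-in scaled median of all lists with more than 5 genes tested. Of 16 tested 3 [0 each time] rose and 3 [1 to 3] fell in amount (5 fell with the replicate block), and 9 rose and none fell in share (medians −0.16 and 0.80). *Lef1*, the transcription factor of the Wnt pathway, was at 29.6 and 31.7 spike-in TPM at 0 h against 64.4 and 63.6 at 144 h (log2 difference 1.04, SE 0.32, adjusted p = 0.012). *Pou3f1*, which works with OTX2 in formative cells, was at 8.85 and 10.99 spike-in TPM at 0 h against 22.5 and 17.7 at 144 h (log2 difference 0.95, SE 0.34, adjusted p = 0.029). *Otx2* was at 20.6 and 16.5 spike-in TPM at 0 h against 31.2 and 31.5 at 144 h (log2 difference 0.74, SE 0.30, adjusted p = 0.048). In each, both libraries at 144 h lay above both at 0 h, as in 3.61% of all genes tested. The members that fell in amount were the de novo methyltransferases *Dnmt3a* (−1.23, adjusted p = 0.0075) and *Dnmt3b* (−0.83, adjusted p = 0.023) and the neurofilament gene *Nefl* (−1.37, adjusted p = 0.002). The calls in amount were lost for *Lef1*, *Pou3f1* and *Otx2* without any 1 of the 4 libraries, for *Dnmt3a* without 144 h replicate 2 and for *Dnmt3b* without 0 h replicate 2 or 144 h replicate 1 or 144 h replicate 2 (adjusted p 0.052 to 0.27). *Lef1*, *Pou3f1*, *Otx2*, *Dnmt3a*, *Dnmt3b* and *Nefl* overlap other annotated genes, so reads there are uncertain.

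Signalling genes were mixed. Among NODAL and BMP genes, *Lefty2*, a secreted NODAL inhibitor that NODAL induces, was at 61.4 and 85.7 spike-in TPM at 0 h against 137 and 105 at 144 h (plain TPM 1.72, adjusted p = 0.00012). *Id1*, an inhibitor of bHLH factors, was at 94 and 209 spike-in TPM at 0 h against 33.3 and 25.4 at 144 h (log2 difference −2.23, SE 0.42, adjusted p = 0.00062). *Id3*, of the same family, was at 51.96 and 101 spike-in TPM at 0 h against 25.6 and 18.03 at 144 h (log2 difference −1.71, SE 0.38, adjusted p = 0.0018). *Smad6*, the feedback inhibitor of the pathway, was at 11.9 and 9.43 spike-in TPM at 0 h against 2.02 and 1.91 at 144 h (log2 difference −1.97, SE 0.35, adjusted p = 0.00039). Of 24 genes on that list 8 [3 to 7] fell and 1 rose in amount (13 fell with the replicate block), and in share 9 were higher and 2 [1 to 3] lower. Of 23 FGF and ERK genes 8 [3 to 6] fell in amount and 8 [5 to 7] rose in share. Of the ERK feedback inhibitors, *Spry2*, *Spry4* and *Spred2* were not called in amount and rose in share, and with the replicate block *Spry1* was higher in amount (0.63, adjusted p = 0.025). *Spry2* was at 200 and 205 spike-in TPM at 0 h against 204 and 188 at 144 h (plain TPM 0.97). *Spry4* was at 138 and 150 spike-in TPM at 0 h against 135 and 129 at 144 h (plain TPM 0.90). *Spred2* was at 111 and 115 spike-in TPM at 0 h against 111 and 100 at 144 h (plain TPM 0.92). *Fgfr1*, a receptor, was at 83.6 and 88.2 spike-in TPM at 0 h against 33.1 and 30.7 at 144 h (log2 difference −1.40, SE 0.28, adjusted p = 0.00086). Of 19 Wnt targets and TCF genes 1 [0 each time] rose and 6 [1 to 4] fell in amount, and in share 7 [4 to 7] rose and 1 [1 to 2] fell. *Fzd7*, a Wnt receptor, was at 53.5 and 51.97 spike-in TPM at 0 h against 63.1 and 64.4 at 144 h (plain TPM 1.27, adjusted p = 6.7e-05). *Tcf7l1*, the TCF that represses Wnt targets in ES cells, was at 82 and 78.9 spike-in TPM at 0 h against 27.1 and 26.5 at 144 h (log2 difference −1.55, SE 0.32, adjusted p = 0.0011). Of 14 genes of LIF and STAT3 signalling 7 [3 to 5] fell in amount, and in share 5 rose and 1 [0 to 1] fell. *Pim3* was at 178 and 188 spike-in TPM at 0 h against 202 and 171 at 144 h (plain TPM 1.04, adjusted p = 0.00014). *Socs2* was at 66.6 and 81.3 spike-in TPM at 0 h against 68.04 and 70.7 at 144 h (plain TPM 0.92, adjusted p = 0.00089). With the replicate block *Lefty2* was called in amount (adjusted p = 0.013). *Spry4*, *Fgfr1* and *Tcf7l1* overlap other annotated genes, so reads there are uncertain.

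Markers of cell types other than ES cells were read in 6 lists. Of 18 primitive endoderm markers 14 [8 to 17] fell in amount and 5 in share (11 in share with the replicate block), and none rose. Their summed amount was 1205 and 1446 spike-in scaled TPM at 0 h, 2915 and 2900 at 24 h, 903 and 934 at 72 h, then 447 and 374 at 144 h, so both libraries at 144 h were the lowest of the 8 wild-type libraries and both at 24 h the highest. *Sparc*, a secreted matrix protein, was at 357 and 396 spike-in TPM at 0 h against 57.3 and 51.8 at 144 h (log2 difference −2.76, SE 0.26, adjusted p = 1.3e-06). The basement membrane collagens fell too, *Col4a1* at 97.2 and 92.7 spike-in TPM at 0 h against 12.1 and 9.25 at 144 h (log2 difference −3.05, SE 0.28, adjusted p = 1.3e-06). *Col4a2* was at 35.1 and 40.8 spike-in TPM at 0 h against 5.61 and 4.55 at 144 h (log2 difference −2.68, SE 0.30, adjusted p = 1e-05). *Cubn*, an endocytic receptor of that lineage, was at 5.69 and 41.6 spike-in TPM at 0 h against 2.49 and 1.57 at 144 h. *Fgfr2*, of the trophectoderm list, was at 13.9 and 44.5 spike-in TPM at 0 h against 4.002 and 2.81 at 144 h. For both, 0 h replicate 2 stood far above replicate 1, and the share was not called, except that of *Fgfr2* with the replicate block (log2 difference −1.60, adjusted p = 0.018). In bulk RNA, fewer cells of a type and less RNA per cell cannot be told apart. The trophectoderm, neuroectoderm, fibroblast and mesendoderm lists held 14, 12, 11 and 9 genes, of which 11, 7, 3 and 3 passed the filter on low values. The summed trophectoderm list was 154 and 234 spike-in scaled TPM at 0 h and 57.7 and 53.3 at 144 h, and 72.9 and 111 against 53.9 and 53.3 plain TPM. Of its tested genes 8 [2 to 7] fell in amount, and in share 2 [1 to 2] rose and 2 [0 to 3] fell. The summed neuroectoderm list was 235 and 248 spike-in scaled TPM against 92.3 and 93.6, and 111 and 118 against 86.3 and 93.6 plain TPM. Of its tested genes 4 fell in amount, and in share 1 [1 to 2] rose and 3 [1 to 2] fell. The summed fibroblast list was 24.2 and 15.0 spike-in scaled TPM against 7.93 and 5.88, and its plain TPM, 11.5 and 7.09 against 7.41 and 5.88, overlapped between the groups. Of the mesendoderm genes 1 [0 to 1] fell in amount and 1 rose in share, with a spike-in scaled median of 0.038. Of 15 genes of the 2-cell-like list, 0 [0 to 2] fell in amount and 1 [0 to 1] rose in share (*Duxf3*, plain TPM log2 difference 0.98, adjusted p = 0.039). The *Duxf3* call was also lost with a pseudocount of 0.1 (adjusted p = 0.068), with no filter (0.11), with the 4 libraries alone (0.13) and with the 8 wild-type libraries (0.064). In amount, the calls were lost for *Cubn* without 0 h replicate 2 or 144 h replicate 2 and for *Fgfr2* without 0 h replicate 2 (adjusted p 0.082 to 0.3). The call in share was lost for *Duxf3* without 0 h replicate 1 or 144 h replicate 1 (adjusted p 0.25 to 0.26). *Col4a1*, *Col4a2*, *Cubn* and *Fgfr2* overlap other annotated genes, so reads there are uncertain.

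In the matrix list, *Fn1*, the fibronectin gene, was at 580 and 440 spike-in TPM at 0 h against 614 and 585 at 144 h, not called in amount and higher in share (plain TPM log2 difference 1.27, adjusted p = 0.00044). Of 23 basement membrane and adhesion genes 16 [9 to 10] fell in amount, and in share 4 [2 to 3] rose and 4 fell. *Fn1* overlaps another annotated gene, so reads there are uncertain.

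Imprinted genes are expressed from 1 parental copy, and 56.8% of those tested fell in amount against 50.5% of all genes tested. In share 16.2% rose and 27% fell, against 15.6% and 11.7%. Of 37 tested 1 [0 to 1] rose and 21 [12 to 19] fell in amount, and in share 6 [3 to 7] rose and 10 [6 to 12] fell. *H19*, a growth-limiting noncoding RNA, was at 45.6 and 321 spike-in TPM at 0 h against 7.58 and 11.5 at 144 h (log2 difference −3.56, SE 0.72, adjusted p = 0.00099). *Igf2*, its neighbour and a fetal growth factor, was at 7.21 and 11.6 spike-in TPM at 0 h against 0.497 and 0.4295 at 144 h (log2 difference −2.80, SE 0.35, adjusted p = 2.5e-05). *Plagl1*, a zinc-finger regulator of the network, was at 29.4 and 27.9 spike-in TPM at 0 h against 1.98 and 3.799 at 144 h (log2 difference −2.97, SE 0.42, adjusted p = 7.1e-05). All values at 144 h lay below all at 0 h, as in 82.1% of all genes tested, and for *H19* 0 h replicate 2 stood far above replicate 1. *Meg3*, a noncoding RNA made from the maternal copy of the *Dlk1* region of chromosome 12, was at 160 and 253 spike-in TPM at 0 h against 344 and 391 at 144 h (log2 difference 0.87, SE 0.29, adjusted p = 0.018). The further transcripts of that unit, *Rian* and *Mirg*, had higher shares (1.40 and 1.43, adjusted p = 0.002 and 0.0033) without a call on the amount. In amount, the call was lost for *Meg3* without 0 h replicate 1 or 144 h replicate 1 or 144 h replicate 2 (adjusted p 0.058 to 0.23). *H19*, *Igf2*, *Plagl1*, *Meg3*, *Rian* and *Mirg* overlap other annotated genes, so reads there are uncertain.

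Of 24 genes of DNA methylation and demethylation, 16 [6 to 10] fell in amount, and in share 5 [2 to 4] rose and 2 [0 to 2] fell. *Uhrf1*, which brings DNMT1 to newly replicated DNA, was at 633 and 553 spike-in TPM at 0 h against 234 and 210 at 144 h (log2 difference −1.41, SE 0.26, adjusted p = 0.0005). *Tet1*, which oxidises 5-methylcytosine, was at 416 and 403 spike-in TPM at 0 h against 344 and 349 at 144 h, with no call on the amount (adjusted p = 0.49) and a higher share (plain TPM log2 difference 0.79, adjusted p = 0.00029). *Tet2* was at 210 and 203 spike-in TPM at 0 h against 129 and 143 at 144 h, with a share difference of 0.42 (adjusted p = 0.033). *Tet3* was at 12.7 and 14.4 spike-in TPM at 0 h against 7.703 and 8.22 at 144 h, with a share difference of 0.23 (adjusted p = 0.2). *Gadd45b*, a stress-induced adaptor, was at 38.2 and 35.6 spike-in TPM at 0 h against 9.27 and 7.05 at 144 h (log2 difference −2.06, SE 0.29, adjusted p = 7.6e-05). The call in share was lost for *Tet2* without 0 h replicate 1 or 0 h replicate 2 or 144 h replicate 2 (adjusted p 0.091 to 0.23). With the replicate block *Tet2* was called in amount (adjusted p = 0.019). With the replicate block *Tet3* was called in amount (adjusted p = 0.0086). *Tet1*, *Tet2* and *Tet3* overlap other annotated genes, so reads there are uncertain.

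The 12 largest rises and falls were taken among 49 genes higher and 1827 lower on both quantities whose libraries did not overlap, that spanned at least 200 bases and reached a mean of 5 TPM. Among the rises, *Oasl2*, an oligoadenylate synthetase-like protein of the interferon list, was at 0.213 and 1.13 spike-in TPM at 0 h against 7.67 and 5.51 at 144 h. *Gbp2*, a guanylate-binding protein that is not on that list, was at 0.102 and 1.41 spike-in TPM at 0 h against 5.71 and 4.43 at 144 h (log2 difference 1.89, SE 0.37, adjusted p = 0.00085). *Zbp1*, a sensor of Z-form nucleic acid that is not on it either, was at 1.05 and 1.61 spike-in TPM at 0 h against 7.07 and 4.45 at 144 h (log2 difference 1.52, SE 0.39, adjusted p = 0.0045). Of 28 genes of the interferon list 2 [1 to 2] rose and 14 [7 to 10] fell in amount. Beside *Oasl2*, *Irf1* rose, at 31.6 and 32.9 spike-in TPM at 0 h against 69.3 and 51.1 at 144 h (log2 difference 0.87, SE 0.28, adjusted p = 0.018). *Oas1a* was at 32.6 and 16.7 spike-in TPM at 0 h against 2.76 and 1.82 at 144 h (log2 difference −2.91, SE 0.40, adjusted p = 5.6e-05). *Ifitm3*, which blocks virus entry, was at 431 and 522 spike-in TPM at 0 h against 121 and 105 at 144 h (log2 difference −2.06, SE 0.31, adjusted p = 0.00011). *Nphs1*, which encodes nephrin of the kidney slit diaphragm, had the highest level among the rises, at 57.5 and 81.1 spike-in TPM at 0 h against 184 and 173 at 144 h (log2 difference 1.37, SE 0.27, adjusted p = 0.00087). *Bcl11a*, a zinc-finger repressor, was at 3.32 and 4.92 spike-in TPM at 0 h against 14.8 and 14.9 at 144 h (log2 difference 1.65, SE 0.36, adjusted p = 0.0017). *Rgs9*, a regulator of G-protein signalling, was at 1.26 and 1.17 spike-in TPM at 0 h against 6.11 and 6.097 at 144 h (log2 difference 1.68, SE 0.32, adjusted p = 0.00073). *2610528J11Rik* was at 2.11 and 5.201 spike-in TPM at 0 h against 15.6 and 10.9 at 144 h. *Tmem30b*, a subunit of lipid flippases, was at 1.09 and 3.85 spike-in TPM at 0 h against 8.75 and 7.399 at 144 h. In amount, the calls were lost for *Zbp1* without 144 h replicate 1, for *Irf1* without 0 h replicate 1 or 0 h replicate 2 or 144 h replicate 1, for *2610528J11Rik* without 0 h replicate 1 and for *Tmem30b* without 0 h replicate 1 or 144 h replicate 1 (adjusted p 0.06 to 0.19). *Gbp2*, *Irf1*, *Nphs1* and *Bcl11a* overlap other annotated genes, so reads there are uncertain.

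**Figure D4:**
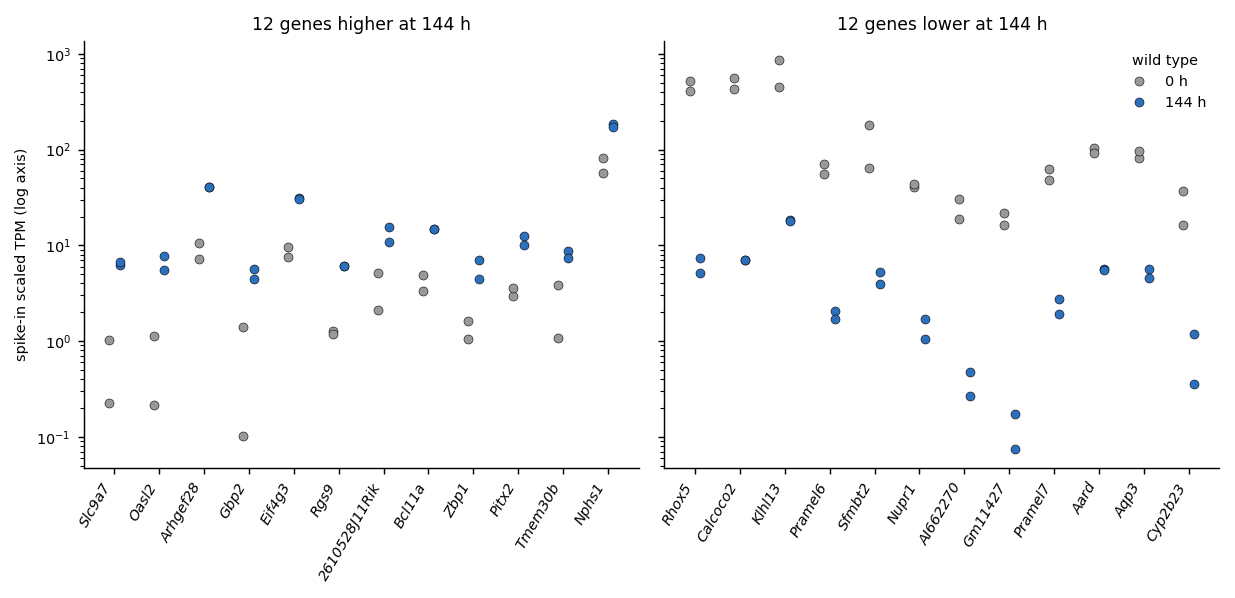
Spike-in scaled TPM (log axis) of the 12 genes with the largest rises (left) and the 12 with the largest falls (right), with 1 point per library, grey for 0 h and blue for 144 h. Genes were selected for libraries that do not overlap between the groups, and replicates at 0 h differ most in *Gbp2* among the rises.

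Of 24 germline genes that DNA methylation represses, 9 [3 to 8] fell in amount, and in share 6 [3 to 4] rose and 3 fell. These are 37.5% lower in amount, 25% higher in share and 12.5% lower in share, against 50.5%, 15.6% and 11.7% of all genes tested. Among the 12 largest falls, *Pramel6*, of a family expressed in the blastocyst and in naive ES cells, was at 55.7 and 71.4 spike-in TPM at 0 h against 2.07 and 1.69 at 144 h (log2 difference −4.48, SE 0.41, adjusted p = 1.3e-06). *Pramel7* was at 47.6 and 63.4 spike-in TPM at 0 h against 2.78 and 1.94 at 144 h (log2 difference −4.07, SE 0.48, adjusted p = 1.7e-05). *Rhox5* was at 524 and 408 spike-in TPM at 0 h against 7.296 and 5.197 at 144 h. Of the 7 genes tested in its X-linked homeobox cluster 6 fell in amount and 4 [2 to 3] in share. *Rhox6* was at 11.01 and 14.3 spike-in TPM at 0 h against 1.91 and 1.67 at 144 h (log2 difference −2.28, SE 0.35, adjusted p = 0.00014). *Rhox10* was at 5.23 and 5.69 spike-in TPM at 0 h against 4.27 and 5.01 at 144 h with a higher share (plain TPM log2 difference 0.61, adjusted p = 0.0078). *Sfmbt2*, a Polycomb protein gene needed in the trophoblast, was at 63.9 and 179 spike-in TPM at 0 h against 5.32 and 3.91 at 144 h (log2 difference −4.28, SE 0.51, adjusted p = 1.7e-05). *Aqp3*, a water and glycerol channel, was at 81.1 and 97.5 spike-in TPM at 0 h against 5.64 and 4.51 at 144 h (log2 difference −3.89, SE 0.49, adjusted p = 2.5e-05). *Aard* was at 104 and 91.5 spike-in TPM at 0 h against 5.64 and 5.54 at 144 h (log2 difference −3.90, SE 0.32, adjusted p = 5.2e-07). *Klhl13*, a ubiquitin ligase adaptor, was at 446 and 860 spike-in TPM at 0 h against 18.5 and 18.1 at 144 h. The cytochrome P450 gene *Cyp2b23* was at 16.3 and 36.9 spike-in TPM at 0 h against 0.353 and 1.19 at 144 h. *AI662270* was at 18.6 and 30.4 spike-in TPM at 0 h against 0.472 and 0.267 at 144 h. *Gm11427* was at 16.2 and 21.7 spike-in TPM at 0 h against 0.0753 and 0.173 at 144 h. They overlap on the same strand, so they cannot be counted as 2 separate falls. *Rhox*, *Pramel*, *Oas* and *Gbp* genes have close relatives among which the counting could have split reads. The call in share was lost for *Rhox10* without 144 h replicate 2 (adjusted p = 0.08). *Sfmbt2*, *Klhl13*, *AI662270* and *Gm11427* overlap other annotated genes, so reads there are uncertain.

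Genes of microRNAs made up 12 of the 84 genes that rose in amount, and 11 of them lie in 3 clusters. Of 482 miRNA genes tested, 12 rose and 164 (34.0%) fell in amount, where over all genes tested 0.461% rose and 50.5% fell. These genes were chosen after their values were seen, and every tested member of the miR-290 and X-linked clusters is given. The values count reads of total RNA over the hairpin and are not levels of the mature miRNA. Hairpins are shorter than usual RNA-seq fragments, so their TPM are less certain than those of long genes. The miR-290 cluster on chromosome 7, the main miRNA source of mouse ES cells, had 5 of 7 tested genes higher in amount and 7 of 7 in share. *Mir291a* was at 7.02 and 7.41 spike-in scaled TPM at 0 h and 61.8 and 56.9 at 144 h (log2 difference 2.88, adjusted p = 0.00043). *Mir292* was at 9.95 and 10.9 against 62.2 and 74.5 (2.60, adjusted p = 0.0021), and *Mir294* at 15.1 and 20.5 against 69.9 and 84.1 (2.06, adjusted p = 0.010). *Mir295* was at 24.2 and 23.3 against 97.8 and 77.8 (1.83, adjusted p = 0.0072), and *Mir291b* at 87.9 and 84.4 against 239 and 223 (1.41, adjusted p = 0.0095). *Mir293*, at 29.02 and 56.4 against 103 and 109, was not called in amount (adjusted p = 0.075, and 0.00071 with the replicate block), and *Mir290a*, at 36.0 and 60.7 against 50.8 and 66.6, was the only tested gene of the cluster whose libraries overlapped. The calls in share were lost for *Mir290a* without 0 h replicate 1 or 144 h replicate 2 (adjusted p 0.095 and 0.10), and for *Mir293* without 0 h replicate 1 or either library at 144 h (adjusted p 0.081 to 0.14). With no filter on low values the calls in amount of *Mir291b* (adjusted p = 0.099), *Mir292* (0.057), *Mir294* (0.13) and *Mir295* (0.10) were lost, as was that of *Mir293* in share (0.076).

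The X-linked cluster of *Mir106a* to *Mir363*, a relative of the miR-17 cluster, had 4 of 6 genes higher in amount and 6 of 6 in share. *Mir363* was at 3.35 and 5.02 at 0 h and 19.3 and 22.3 at 144 h (2.09, adjusted p = 0.0016), and *Mir18b* at 3.58 and 5.38 against 19.9 and 14.5 (1.74, adjusted p = 0.0044). *Mir92-2* was at 0.563 and 4.46 against 13.1 and 9.995 (2.09, adjusted p = 0.0022), and *Mir19b-2* at 0.0225 and 0.939 against 1.66 and 3.65 (1.32, adjusted p = 0.043). *Mir20b* and *Mir106a* were at 1.497 to 2.19 and 1.74 at 0 h, against 2.499 to 3.72 and 2.77 to 3.89 at 144 h, and were not called in amount. The other miRNA genes that rose in amount were *Mir541* (1.14, adjusted p = 0.045) and *Mir154* (1.63, adjusted p = 0.0053) within *Mirg*, where *Mir154* was listed at 0 in 1 library at 0 h, and *Mir99b* on chromosome 17 (1.01, adjusted p = 0.035), which overlaps *Spaca6*. Of the chromosome 12 genes, *Mir127*, *Mir379*, *Mir411* and *Mir433* were also tested and not called in amount. Without 0 h replicate 1 the calls in amount of *Mir92-2* (adjusted p = 0.062), *Mir19b-2* (0.24), *Mir541* (0.24) and *Mir99b* (0.10) were lost, and without 0 h replicate 2 those of *Mir541* (0.052) and *Mir99b* (0.12). Without 144 h replicate 1 the calls of *Mir154* (0.051), *Mir541* (0.094) and *Mir99b* (0.078) were lost, and without 144 h replicate 2 those of *Mir294* (0.051), *Mir19b-2* (0.25), *Mir541* (0.18) and *Mir99b* (0.18). The calls in share were lost for *Mir106a* without any 1 of the 4 libraries (adjusted p 0.078 to 0.22), for *Mir20b* without either library at 0 h or 144 h replicate 2 (0.058 to 0.16), and for *Mir19b-2* without 0 h replicate 1 (0.097) or 144 h replicate 2 (0.13). With no filter on low values the calls in amount of *Mir19b-2* (adjusted p = 0.22), *Mir541* (0.19), *Mir154* (0.051) and *Mir99b* (0.12) were lost, as were those in share of *Mir106a* (0.12) and *Mir20b* (0.067). With a pseudocount of 0.1 the calls in share of *Mir106a* (adjusted p = 0.10), *Mir20b* (0.13) and *Mir19b-2* (0.053) and that in amount of *Mir19b-2* (0.068) were lost. That in share of *Mir106a* was also lost with a pseudocount of 0.5 (0.059) and with the 8 wild-type libraries (0.058).

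**Figure D5:**
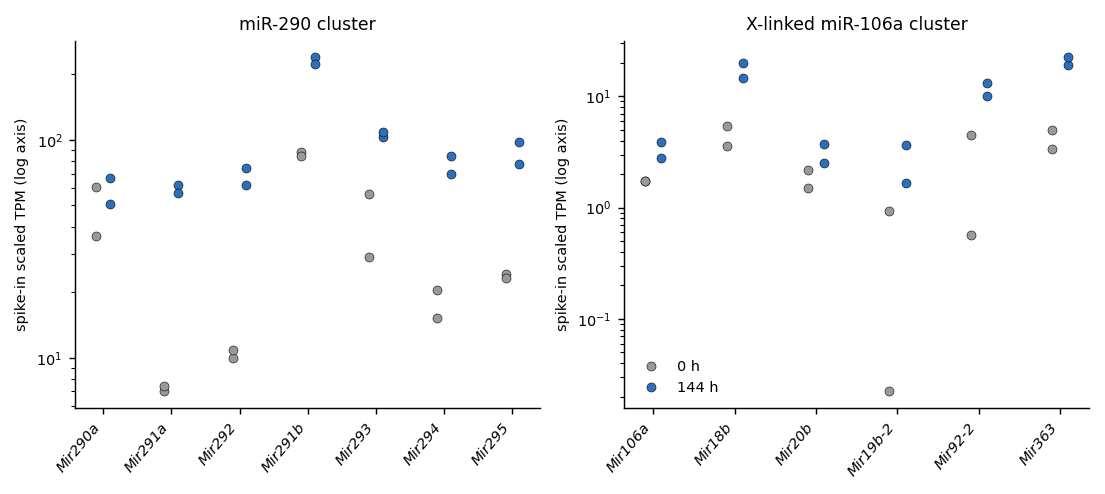
Spike-in scaled TPM over the hairpin (log axis) for each tested gene of the miR-290 cluster (left) and of the X-linked miR-106a cluster (right), with 1 point per library, grey for 0 h and blue for 144 h. In the left panel the groups overlap for *Mir290a* alone, and in the right panel *Mir92-2* and *Mir19b-2* have the widest spread at 0 h.

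The mature sequences show that genes within each of these clusters share seeds, the bases 2 to 8 that pair with target mRNAs and that are in capitals here. No seed printed here is shared between the clusters. The RefSeq sequences of build GRCm38.p6 below are of the arms that carry the AAGUGCU seed and of arms with letters close to it. The last 2, miR-92a-3p and miR-363-3p, carry another seed, AUUGCAC.
miR-291a-3p: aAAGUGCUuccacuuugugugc
miR-294-3p: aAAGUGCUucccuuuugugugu
miR-295-3p: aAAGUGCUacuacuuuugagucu
miR-291b-3p: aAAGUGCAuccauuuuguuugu
miR-290a-3p: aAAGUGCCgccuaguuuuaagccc
miR-106a-5p: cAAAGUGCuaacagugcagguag
miR-20b-5p: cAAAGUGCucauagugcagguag
miR-92a-3p: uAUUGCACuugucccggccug
miR-363-3p: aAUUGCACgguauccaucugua
The first 3 share 1 seed, and the 2 that follow differ from it in the last base. In the X-linked cluster miR-106a-5p and miR-20b-5p share a seed that holds the letters AAGUGC shifted by 1 base, and miR-92a-3p and miR-363-3p share another. Members of the miR-290 cluster, and of the X-linked cluster, lie within a few kilobases of one another and share transcripts. *Mir154* and *Mir541* of chromosome 12 both lie within *Mirg*. Members of a cluster are therefore not independent observations.

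The single genes with the largest shares of the libraries were noncoding at both times. Protein-coding genes together took 69.1 and 71.7% of TPM at 0 h and 72.1 and 72.8% at 144 h. *Rn7sk*, which holds the elongation factor P-TEFb inactive, took 3.10 and 3.38% of TPM at 0 h and 4.28 and 4.35% at 144 h, and *Gm26917* 2.88 and 4.11% against 4.604 and 5.699%, neither called. *Rn7s1*, a 7SL RNA of the signal recognition particle, took 4.05 and 2.85% against 2.84 and 2.31%. *Rn7s1* and *Rn7s2* are near-identical copies between which reads can be split. The miRNA-annotated *Gm23935* took 4.24 and 0.845% at 0 h and 0.209 and 0.0659% at 144 h, so 0 h replicate 1 held the most, and the shares of other genes in that library are lower for it, since TPM sum to a fixed total. The highest protein-coding gene that is nuclear, *Eef1a1*, went from 0.675 and 0.727% to 1.17 and 1.14%.

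The change in share varied with transcript length. Over deciles of the protein-coding genes ordered by exonic length, the median plain TPM difference went from −0.12 in the shortest to 0.23 in the longest. In the shortest decile 7.53% of 1328 genes rose and 22.0% fell in share, and in the longest 31.1% of 1324 rose and 5.82% fell. The spike-in scaled medians were −1.03 and −0.72. Genes of mitochondrial ribosomal proteins and respiratory chain subunits are mostly short, and the part of length in their change was not tested. By chromosome, the 36 genes of the mitochondrial genome, tRNA genes included, had the lowest medians, at −1.46 and −0.44.

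For context, against the same 0 h libraries 227 genes were higher and 1592 lower in amount at 24 h (1.25% and 8.73%), and 2883 were higher and 2563 lower in share (15.8% and 14.1%). At 72 h, 127 genes were higher and 1385 lower in amount (0.697% and 7.6%), and 2301 were higher and 2080 lower in share (12.6% and 11.4%). Between 72 and 144 h, 1 gene was higher and 71 were lower in amount (0.00548% and 0.389% of those tested), and 43 were higher and 22 lower in share (0.236% and 0.121%). The genes with large changes followed several courses in plain TPM, each given as the log2 difference from 0 h at 24, 72 and 144 h. *Mthfd2* was at −2.28, −2.42 and −2.36, *Chac1* at −1.65, −2.56 and −2.73 and *Rhox5* at −0.29, −2.15 and −4.98. *Lef1* was at −1.66, 1.38 and 2.02, *Eif4g3* at 2.21, 2.69 and 2.63 and *Klhl24* at 2.22, 2.01 and 2.11. *Sparc* was at 1.13, −0.56 and −1.74, *Col4a1* at 2.10, −0.49 and −2.04 and *Ldha* at −3.30, −2.11 and −0.67, genes whose 24 h value had another sign or a larger size than at 144 h.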

How the data were processed

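RNA-seq libraries were made from total RNA of sorted E14 cells after depletion of ribosomal RNA, with ERCC spike-in RNAs added. The authors trimmed, aligned and quantified the reads, and the submitters' processing notes name cutadapt 2.4, STAR 2.7.3a and StringTie 2.0, with build mm10. The deposited values were TPM per gene in each library, which sum to the same total in every library and keep no depth, so no interval from read counts could be given. TPM of entries with the same gene identifier were summed. Spike-in scaled values were the deposited TPM times 1 factor per library, which was recovered as the ratio of the study's spike-in normalized table to the TPM (482 to 539 genes per library at a TPM of at least 1).

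A gene was kept where its spike-in scaled TPM averaged 1 or more over the 14 libraries (18232 of 38890 above 0). limma 3.58.1 in R 4.3.3, with a trended prior, was fitted to log2(TPM + 1) and to log2(scaled TPM + 1) over 7 groups of 2 libraries, with Benjamini-Hochberg adjustment at 0.05. Sample groups were taken from the labels. The authors' methods name a count model, which TPM do not allow. Genes named in the text were drawn from key genes of the pathways, up to 4 called rises and falls of each list on each quantity, the 12 largest rises and falls, and the 10 most abundant genes, not all of which are named. The miRNA genes and *Cebpg*, *Cited2*, *Foxo4*, *Gars*, *Sesn1* and *Tob1* were named outside this rule, after their values were seen. Members and lists were chosen with earlier results of these data known. Promoter and miRNA sequences came from RefSeq. A few items are not reported here.

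The study's reporting form states that the time points of a replicate were handled in parallel, so the replicate number was also fitted as a block within genotype. The correlation of same-numbered deviations between 0 h and 144 h was 0.0622 spike-in scaled and 0.054 in plain TPM, and that between the other wild-type times ranged from 0.12 to 0.44.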

Additional observations from a re-analysis of the deposited data

How the results depend on the processing

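The alternatives were other pseudocounts, a filter at a mean of 5 TPM or none, fits on the 4 libraries or on the 8 wild-type libraries, no trended prior, the replicate block, centring each library on its median, no library factor, and leaving out each of the 4 libraries. The median spike-in scaled log2 difference over all genes, −0.83, was −0.94 with a pseudocount of 0.1, −0.93 with the filter at a mean of 5 TPM and −0.22 with no filter. It turned to 0.0045 with libraries centred on their medians and to 0.055 with no library factor, both of which remove the change in total amount by construction. The number of genes higher in amount, 84, was 201 with the 4 libraries alone, 176 with the 8 wild-type libraries, 191 with the replicate block, 2497 with centring and 2844 with no factor. The number lower in amount, 9203, was 2778 with centring and 2134 with no factor, and the split of higher to lower calls moved with it. In share, centring gave 1988 genes higher and 2946 lower, against 2844 and 2134 in the main fit.

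Leaving out 1 library at a time gave 33 to 50 genes higher and 3911 to 6355 lower in amount, and 1246 to 2135 higher and 930 to 1612 lower in share. The fit with a library left out assumes that the lone remaining one varies like the other groups. The replicate block gave 12092 genes lower in amount, 3629 higher in share and 2837 lower in share. Single genes were followed through the alternatives for 404 genes, not all of them named here. Among these the block removed 1 call, that of *Id1* in share (adjusted p = 0.052). None of the 404 genes that had a call changed direction under the 12 alternatives run for single genes, which were all but centring and no library factor. With no factor the amount is the share by construction, so the 77 genes lower in amount and higher in share, such as *Qars*, have the opposite sign. With no filter, 48 calls in amount and 51 in share of the 404 genes followed were lost. With 2 libraries per group and no read depth, small differences cannot be resolved.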

Other observations

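The library factors were quotients of 76 by whole numbers to within 0.001: 36 in both libraries at 0 h, and 71 and 76 at 144 h. Steps of 1 in these whole numbers correspond to a relative step of the factor whose rounding is 1.39% at 0 h, 0.704% in 144 h replicate 1 and 0.658% in 144 h replicate 2.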
